A study of Mus musculus with 3 samples.

Results

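Cohesin is a ring-shaped protein complex that holds sister chromatids together and shapes chromatin loops. Described here are 8 mouse genes that encode its core subunits, chosen by symbol from the count table, and all 8 were found among its 32285 genes: the kleisins Rec8, Rad21l and Rad21, which close the ring, the STAG subunits Stag3 and Stag2, which bind the kleisin, and the SMC subunits Smc1b, Smc1a and Smc3, which form the body of the ring. Rec8, Rad21l, Stag3 and Smc1b are known as meiotic subunits, Rad21, Stag2 and Smc1a as general subunits that dividing somatic cells use as well, and Smc3 is shared by all forms of the complex. In meiosis, cohesin with meiotic subunits builds the axes on which homologous chromosomes pair and keeps sister centromeres joined until the second division.

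The study compared single cells of adult mouse testis with and without a conditional knockout of Tex10. Per the labels, all mice carried the strain label C57BL/6N. Each of 2 wildtype libraries came from 1 mouse, and cells of 2 conditional Tex10 knockout mice were pooled in the single knockout library. The labels do not give the Cre driver, the deleted part of Tex10 or an exact age, so it is not known from them in which cells Tex10 was deleted. The knockout group is therefore 1 library with no replicate, and intervals on its values cover counting error only.

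The libraries held 93418341 UMIs (unique molecular identifiers, 1 per captured messenger RNA molecule) in 9967 barcodes, 96001773 in 10153 and 147783171 in 12918, in wildtype replicate 1, in wildtype replicate 2 and in the knockout library, the order in which 3 values are given throughout. Any pair of libraries shared 27 to 30 barcodes. After filtering, between 43.07% and 65.42% of the kept cells of a library fell into clusters of very low UMI totals, which were kept out of all classes. The 5 germ cell classes held 3026, 4183 and 3499 cells. A library had 224 to 312 spermatogonia, 436 to 533 early spermatocytes, 507 to 580 late spermatocytes, 709 to 1142 round spermatids and 1150 to 1635 elongating spermatids. Classes were named from marker genes, and each name stands for "marker-defined, like that type". The genes given next were themselves among the naming markers, so their levels describe the classes and do not check the names. Stra8 was listed as a marker of spermatogonia, but its peak fell in early spermatocytes. Along each class, divided into 4 bins by pseudotime (an order of cells by similarity), Stra8, a gene of meiotic entry, was highest in the first bin of early spermatocytes (1488 CPM, counts per 1000000 UMIs), Dmc1, a recombinase of meiotic breaks, in the second (458.5 CPM), Piwil1 in the first bin of late spermatocytes (1165 CPM), the acrosome gene Acrv1 in the third bin of round spermatids (663.6 CPM) and the protamine gene Prm1 in the third bin of elongating spermatids (129500 CPM). Tex10 itself was at 143.2 and 124.1 CPM in wildtype spermatogonia and 131.7 CPM in the knockout library, at 147.3, 138.5 and 131.3 CPM in early spermatocytes, at 60.48, 59.68 and 52.07 CPM in late spermatocytes, at 31.14, 30.83 and 18.89 CPM in round spermatids and at 3.207, 2.687 and 2.476 CPM in elongating spermatids. The libraries read 3′ ends and the deleted part is not stated, so these values do not check the deletion.

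The promoters of the 4 meiotic subunits are shown because these genes are the ones whose levels are followed through meiosis below, and their sequences differ. The genes lie at chr14:55618037-55625395 (Rec8, plus strand), chr2:151645404-151668533 (Rad21l, minus), chr15:51962240-51991747 (Rad21, minus), chr5:138280240-138312393 (Stag3, plus), chrX:42149317-42277185 (Stag2, plus), chr15:85064689-85131964 (Smc1b, minus), chrX:152016428-152062694 (Smc1a, plus) and chr19:53600398-53645833 (Smc3, plus) of GRCm38, all annotated as protein-coding. Each run is 300 bases from RefSeq on GRCm38.p6, read 5′ to 3′ on the gene's strand from 250 bases before to 50 bases after the start that RefSeq annotates. That start can differ from the gene limits above, which are from GENCODE: the Stag3 window lies wholly inside the GENCODE gene. Of the 8 genes, 6 matched the promoter table. Capitals mark CACGTG (the E-box) and GCGGGAA on either strand (printed as TTCCCGC where it lies on the other strand), the letters of an E2F6-type motif. E2F6 is known as a repressor of meiotic genes in other tissues.
Rec8: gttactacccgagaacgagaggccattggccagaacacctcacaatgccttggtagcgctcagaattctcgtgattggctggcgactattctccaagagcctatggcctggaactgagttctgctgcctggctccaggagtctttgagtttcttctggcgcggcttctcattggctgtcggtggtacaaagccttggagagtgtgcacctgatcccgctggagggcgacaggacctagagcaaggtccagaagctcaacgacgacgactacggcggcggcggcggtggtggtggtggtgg
Rad21l: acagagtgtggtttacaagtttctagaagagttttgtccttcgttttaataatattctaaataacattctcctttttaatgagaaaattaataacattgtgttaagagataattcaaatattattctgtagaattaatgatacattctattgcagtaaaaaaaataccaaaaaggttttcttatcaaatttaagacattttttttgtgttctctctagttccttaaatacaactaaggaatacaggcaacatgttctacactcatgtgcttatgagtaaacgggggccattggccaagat
Stag3: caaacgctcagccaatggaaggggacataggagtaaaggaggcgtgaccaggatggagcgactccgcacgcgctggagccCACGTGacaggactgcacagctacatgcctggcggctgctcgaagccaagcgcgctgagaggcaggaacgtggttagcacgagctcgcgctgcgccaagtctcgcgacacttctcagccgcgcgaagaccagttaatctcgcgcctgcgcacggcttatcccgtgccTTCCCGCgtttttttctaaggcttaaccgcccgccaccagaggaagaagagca
Smc1b: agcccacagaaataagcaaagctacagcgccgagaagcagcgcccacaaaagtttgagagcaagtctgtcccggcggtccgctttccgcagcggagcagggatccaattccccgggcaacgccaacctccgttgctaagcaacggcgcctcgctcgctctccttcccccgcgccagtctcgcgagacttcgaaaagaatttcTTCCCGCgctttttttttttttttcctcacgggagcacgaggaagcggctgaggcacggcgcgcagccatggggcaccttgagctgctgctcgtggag
These windows lie at chr14:55617916-55618215 (plus strand) for Rec8, chr2:151668484-151668783 (minus strand) for Rad21l, chr5:138280259-138280558 (plus strand) for Stag3 and chr15:85131908-85132207 (minus strand) for Smc1b. Stag3 and Smc1b each held 1 E2F6-type match, and so did Smc1a, against 4.6% of 32851 promoters. Stag3 held the only E-box among the 6, against 7.15% of all promoters. The Rec8 and Rad21l windows held neither. Also searched were TAACNG (MYB core), CNCCTCAG (STRA8-type) and TGACGTCA (CRE), which are not marked. The first was found in Stag3 alone, against 23.3% of all promoters. The others were found in none of the 6, against 7.94% and 1.79%. The Rad21l window was 29.0% G and C with 2 CpG pairs, and the other 3 were 58.3% to 61.3% G and C with 18 to 30 CpG pairs. A match is a description of letters and not a binding site.

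Among the kleisins, Rad21l was high in early spermatocytes and near 0 from late spermatocytes on. RAD21L is a kleisin that loads early in meiotic prophase. Its level was 23.2, 28.23 and 30.73 CPM in early spermatocytes, against 3.007, 2.676 and 2.119 CPM in spermatogonia. In late spermatocytes it was 0.03392, 0.2473 and 0.0263 CPM, from 8 UMIs in all. In elongating spermatids it was 0 in every library, which allows at most 0.1886, 0.1612 and 0.1076 CPM. Within early spermatocytes the mean of the 3 libraries was 81.97 CPM in the first bin, 55.21 in the second, 12.76 in the third and 3.491 in the last. All 3 libraries had their highest value in the first bin, where Stra8 and Prdm9 (223.2 CPM) were also highest. Rad21l gave 0.271 ± 0.0953 UMIs per cell in early spermatocytes (SD, n = 3 libraries), so most single cells showed none.

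How many cells showed a UMI at equal depth was read after thinning each cell to 2000 UMIs, which left out 0 to 16 shallower cells per library in the classes given here. Rad21l was then seen in 8.065%, 8.333% and 6.805% of early spermatocytes, 0.4464%, 0.6515% and 0.4184% of spermatogonia and 0% of late spermatocytes. Without thinning the early values were 18.81%, 15.37% and 26.08%, at median depths of 6580, 5650 and 9060 UMIs. Myoid cells of the tubule wall, which should lack it, showed none, at median depths of 6006, 5276 and 7338 UMIs. Rec8 was seen in 9.235%, 9.469% and 8.625% of thinned round spermatids and in 0%, 3.371% and 1.064% of thinned myoid cells. Its shares were 2.535%, 3.571% and 1.323% in early spermatocytes and 2.679%, 2.932% and 3.347% in spermatogonia. Both ranges overlapped that of myoid cells, which rests on 0, 3 and 1 cells with a UMI. So few cells cannot decide, over each whole class and at this depth, whether these shares are background. In CPM, Rec8 in spermatogonia (19.55, 17.39 and 18.28) was above myoid cells in every library. In early spermatocytes (9.708, 17.15 and 8.024) Rec8 was above myoid cells in both wildtype libraries and below them in the knockout library.

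Rec8, the kleisin that holds sister chromatids to the second meiotic division, was highest in round spermatids. It was at 19.55, 17.39 and 18.28 CPM in spermatogonia, at 9.708, 17.15 and 8.024 CPM in early spermatocytes, and at 1.798, 1.731 and 1.052 CPM in late spermatocytes. The early spermatocytes of wildtype replicate 2 stood above those of the other 2 libraries. The low-UMI clusters were at 31.88, 26.59 and 22.99 CPM, above both spermatogonia and early spermatocytes in every library. The part of free RNA in those levels was not tested. In round spermatids it was 48.15, 47.73 and 45.02 CPM, above every other germ cell class in every library. By bin, the mean was 46.37 CPM in the last bin of spermatogonia and 40.78 CPM in the first bin of early spermatocytes, the bins on either side of meiotic entry, from 22 to 45 UMIs per library. It then stayed between 1.203 and 1.991 CPM through the 4 bins of late spermatocytes, and was 48.29, 70.56 and 61.96 CPM in the first 3 bins of round spermatids. The level in round spermatids was also high per cell, at 1.491 ± 0.384 UMIs per round spermatid against 0.0846 ± 0.0174 per late spermatocyte (SD, n = 3). No gene of the annotation overlaps Rec8, and none of the 31-base words in its last transcript bases was found in another gene. The late spermatocyte level depends on where that class ends: it was 14.47 CPM with the cohesin genes kept in clustering, 10.65 CPM with a stricter cell filter and 14.92 CPM with doublet-scored barcodes kept, where 1056, 675 and 1115 cells named round spermatids here were named late spermatocytes.

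Rad21, the kleisin of mitotic cells, was highest in spermatogonia, at 130.8, 143.5 and 139.9 CPM. It was 24.86, 23.22 and 18.02 CPM in early spermatocytes and 6.275, 6.718 and 6.574 CPM in late spermatocytes. The ranges of the 3 libraries did not overlap between these 3 classes. Per cell, late spermatocytes had more Rad21 UMIs than early ones, 0.3756 ± 0.1003 against 0.2118 ± 0.03621 (SD, n = 3). The drop began inside spermatogonia, where the bins gave 167.6, 144.0, 120.6 and 77.32 CPM. In round spermatids Rad21 was 17.43, 19.36 and 21.05 CPM, and its range there overlapped that of early spermatocytes. Within round spermatids the bins of Rad21 were 5.438, 5.107, 30.64 and 33.15 CPM. Rec8 was high and Rad21 low in the first 2 bins, both were high in the third, and Rec8 was at 12.2 CPM in the last.

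**Figure D1:**
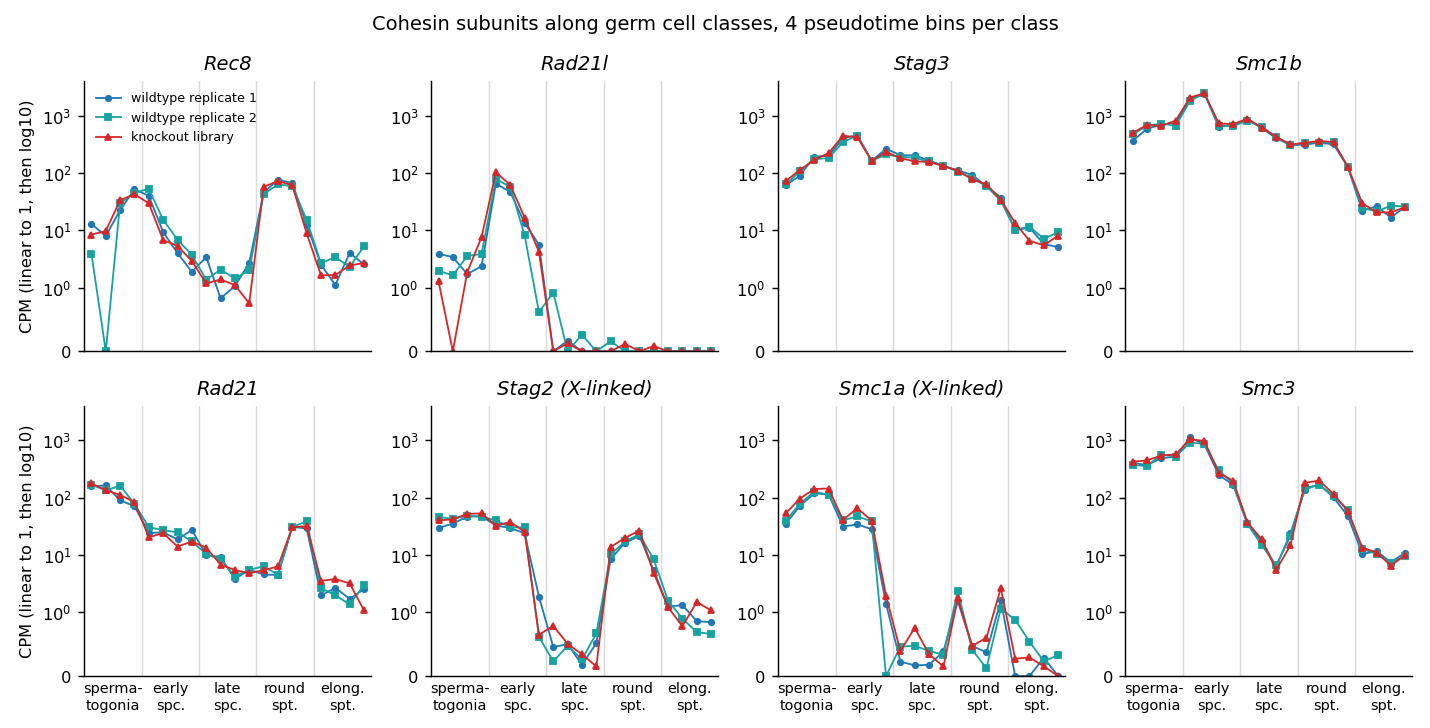
Level of each member in CPM (y axis, linear up to 1 and log10 above) in 4 pseudotime bins of each germ cell class (x axis; spc., spermatocytes; spt., spermatids), 1 line per library. Rad21l has a single peak in early spermatocytes and Rec8 is highest in round spermatids. Stag2, Smc1a and Smc3 are low in late spermatocytes, after falls that lie partly inside early spermatocytes.

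As a share of kleisin UMIs, Rec8 and Rad21l together made up 14.71%, 12.27% and 12.73% in spermatogonia (60 of 408, 60 of 489 and 77 of 605 UMIs) and 56.97%, 66.15% and 68.27% in early spermatocytes (139 of 244, 172 of 260 and 256 of 375). The 95% exact Clopper-Pearson intervals of the early values ran from 50.5 to 63.27, from 60.05 to 71.88 and from 63.29 to 72.95. The difference between the classes was 50.56 ± 7.236 percentage points (SD, n = 3). Within early spermatocytes the highest bin was the first, at 81.32%, 81.02% and 86.67%. The third bin was at 48.15%, 37.93% and 61.11%, and the last was at or below 29.33% in every library. That was below the last bin of spermatogonia, at 43.4%, 38.46% and 37.5%. The early value is thus an average over falling bins and not a level held through the class. The share was then 22.59%, 22.75% and 14.09% in late spermatocytes, where few kleisin UMIs were left, and 73.42%, 71.16% and 68.16% in round spermatids. In the low-UMI clusters the kleisin share was 59.3%, 51.53% and 55.29%. In myoid cells it was 15.15%, 12.0% and 17.78%, near spermatogonia, from 33, 25 and 45 kleisin UMIs. The low late share holds for the class limits used here. Mean late Rec8, 1.527 CPM here, was 14.47 CPM with the cohesin genes kept in clustering. It was 10.65 CPM with a stricter cell filter and 14.92 CPM with doublet-scored barcodes kept. These values are above late Rad21 with the classes used here, 6.275 to 6.718 CPM. Late Rad21 and the late share in those settings are not given here. The size of the early difference rests on where early spermatocytes end. With another rule for naming clusters, tried first, it was the same 50.56 points in the same clustering, but 31.42 points with a stricter cell filter, 36.85 with doublet-scored barcodes kept and 41.77 at a higher clustering resolution, where 409, 767 and 409 late spermatocytes were named early. With each cell classed by its own marker score it was 37.05 points. The same shift moved the mean early levels: with the first rule and the stricter filter Rad21l was 7.272 CPM (27.39 as reported), Rec8 4.653 (11.63), Rad21 14.66 (22.03), Stag2 4.595 (17.25) and Smc1a 5.779 (22.01).

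Of the STAG subunits, Stag3, the STAG protein of meiotic cohesin, was at 121.0, 123.4 and 122.9 CPM in spermatogonia, at 298.3, 267.8 and 277.8 CPM in early spermatocytes and at 170.0, 164.5 and 151.3 CPM in late spermatocytes. All 5 classes were in the same order in every library and the ranges did not overlap. Counted per cell the order differs: Stag3 had 2.769 ± 0.741 UMIs in an early spermatocyte and 9.28 ± 2.158 in a late one (SD, n = 3). Late spermatocytes held more UMIs in all, with median totals per cell of 54440, 35930 and 71140 against 6580, 5650 and 9060. Stag2, an X-linked subunit of somatic cohesin, was 37.97, 46.16 and 44.5 CPM in spermatogonia and 15.15, 19.79 and 16.8 CPM in early spermatocytes. In late spermatocytes it was 0.3731, 0.4121 and 0.3682 CPM, from 11, 10 and 14 UMIs. An exon of Gm37564 overlaps one of Stag2 on the other strand. Use of strand in counting is not known, so reads of both could not be told apart. In round spermatids Stag2 was back at 12.46, 15.6 and 15.38 CPM. Its late value was 3.473 CPM with the cohesin genes kept in clustering and 0.745 CPM at the higher resolution.

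Stag1, the other somatic STAG subunit, is not one of the 8 but is needed to read the share. It is autosomal, and was 232.3, 255.2 and 217.8 CPM in spermatogonia, 236.1, 240.9 and 266.9 CPM in early spermatocytes and 62.21, 70.07 and 62.14 CPM in late spermatocytes. Stag3 made up 30.93%, 29.06% and 31.91% of Stag3, Stag2 and Stag1 UMIs in spermatogonia, 54.29%, 50.67% and 49.47% in early spermatocytes and 73.09%, 70.01% and 70.77% in late spermatocytes. The first step was 20.85 ± 2.973 points (SD, n = 3), and 13.39 points when each cell was thinned to 2000 UMIs. Within early spermatocytes the share was lower in the third bin, at 43.26%, 39.2% and 35.86%, than in the first, at 55.99%, 52.14% and 57.96%. Up to late spermatocytes, most of the remaining STAG UMIs were those of Stag1 and not of Stag2. In round spermatids Stag2 had the larger share, at 13.29%, 16.81% and 18.17% against 6.594%, 6.859% and 6.629% for Stag1. Stag2 was also the larger in elongating spermatids of every library. In the low-UMI clusters Stag3 made up 71.41%, 73.09% and 73.43%, near late spermatocytes, and in myoid cells 9.184%, 15.38% and 13.91%. Reads at 3′ ends are captured with an efficiency that differs by gene, so a share tells of its change along the stages and not of the ratio of molecules.

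Smc1b, the meiotic SMC1 subunit, had more UMIs than any other member in all 5 germ cell classes, with 571.8, 615.2 and 629.2 CPM in spermatogonia and 1150, 1194 and 1189 CPM in early spermatocytes. In late spermatocytes it was 484.2, 520.1 and 487.7 CPM. It peaked in the second bin of early spermatocytes, at 2408, 2441 and 2455 CPM. Per cell the late spermatocytes were highest, with 28.53 ± 6.962 UMIs against 11.56 ± 2.984 in early spermatocytes (SD, n = 3). Elongating spermatids, at 22.51, 24.35 and 23.57 CPM, were below the myoid cells of the tubule wall, at 59.99, 38.13 and 49.52 CPM, which are not known to use this subunit. Whether the value in elongating spermatids is background was not tested. The value was 44.61 CPM under the first naming rule, which put 606 more cells in that class.

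Smc1a, the general SMC1 subunit, is X-linked like Stag2. It was 77.81, 84.63 and 93.25 CPM in spermatogonia and 16.1, 23.75 and 26.19 CPM in early spermatocytes. In late spermatocytes it was 0.2374, 0.4121 and 0.3682 CPM, from 7, 10 and 14 UMIs, and in round spermatids 1.069, 0.9308 and 1.455 CPM. Within spermatogonia it ran opposite to Rad21, from 42.34 CPM in the first bin to 128.9 CPM in the third and 123.4 CPM in the last. Smc1b was already 88.02%, 87.91% and 87.09% of SMC1 UMIs in spermatogonia and was 98.62%, 98.05% and 97.84% in early spermatocytes, a difference of 10.5 ± 0.316 points (SD, n = 3). A share that starts this high leaves little room in points, so the steps of the 3 families are not ranked. High shares were not limited to the named germ cell classes. Smc1b was 98.08%, 98.29% and 98.21% of SMC1 UMIs in the low-UMI clusters. In myoid cells it was 42.5%, 30.51% and 32.73%, from 80, 59 and 110 SMC1 UMIs. The source of these UMIs was not tested.

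Smc3, the partner of both SMC1 subunits, was 428.9, 447.9 and 471.0 CPM in spermatogonia and 444.4, 471.7 and 460.4 CPM in early spermatocytes, with overlapping ranges. With the first naming rule and the stricter filter the early mean was 148.2 CPM, below spermatogonia. Averages over the class hide a peak: the first 2 bins of early spermatocytes were at 1026 and 893.1 CPM. In late spermatocytes Smc3 was 17.3, 17.39 and 15.67 CPM, with 6.092 CPM in the third bin, and in round spermatids 111.7, 123.9 and 126.1 CPM. Unlike Stag2 and Smc1a, Smc3 is on an autosome. In its last transcript bases 6.44% of 31-base words were shared with other genes (Gm11204, Gm29763 and AC154766.2). The late value was 53.33 CPM with the cohesin genes kept in clustering, 41.43 CPM with the stricter filter and 58.14 CPM with doublet-scored barcodes kept.

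**Figure D2:**
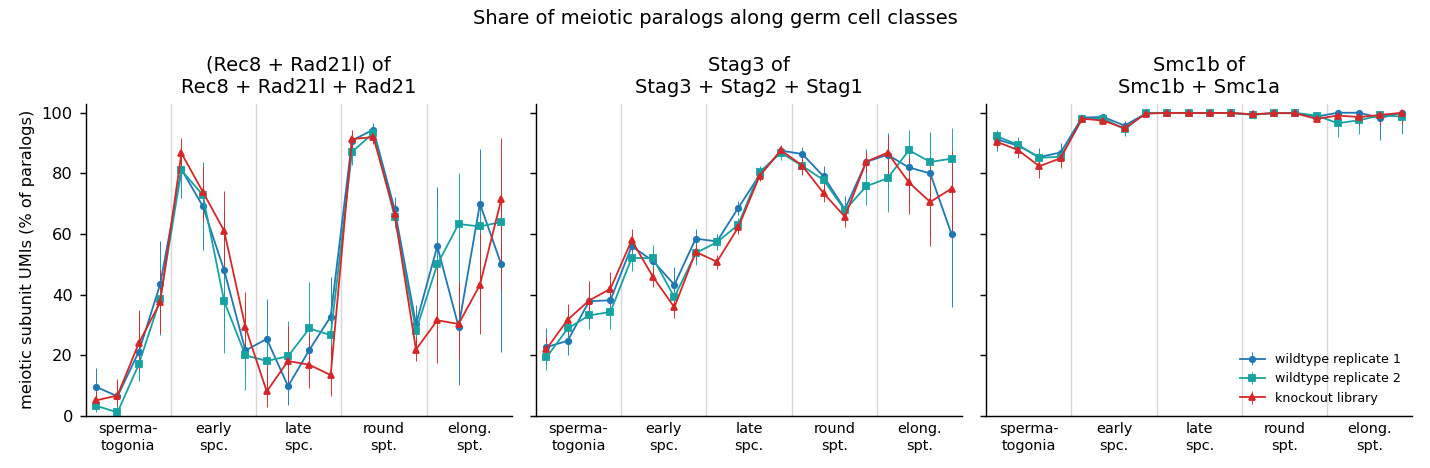
UMIs of the meiotic subunits as a percent of their paralogs' UMIs (y axis) in 4 pseudotime bins of each germ cell class (x axis; spc., spermatocytes; spt., spermatids), 1 line per library, with 95% exact intervals of counting error. With the classes used here, the kleisin share has 2 peaks. The STAG share dips in the third bin of early spermatocytes and reaches 87.52%, 86.8% and 87.68% in the last bin of late ones. The SMC1 share starts near its ceiling.

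A fixed rule, at least 2-fold in the same direction in all 3 libraries with 1 CPM added and 20 CPM in at least 1 of the values, was used to set the members beside all genes. From spermatogonia to early spermatocytes 7 of the 8 reached 20 CPM. Of these 2, Rad21l and Stag3, rose, where 12.8% of all 8236 genes did, and 3, Rad21, Stag2 and Smc1a, fell, where 15.7% did. Smc1b, with log2 ratios of 1.01, 0.956 and 0.917, missed the rule. From early to late spermatocytes 5 of 6 fell (Rad21l, Rad21, Smc1b, Smc1a and Smc3), where 34.6% of 7921 genes did, and none rose, where 19.5% did. From late spermatocytes to round spermatids 3 of 5 rose (Rec8, Rad21 and Smc3), where 28.2% of 7686 genes did, and Stag3 fell, where 34.2% did. From round to elongating spermatids all 5 that reached the minimum fell, where 62.8% of 5934 genes did and 7.82% rose. The members were chosen with their stage pattern known, so these counts describe them and support nothing.

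Of the 22 other genes of cohesin and related complexes, 21 reached 20 CPM at the first step. Of these 3 rose and 3 fell, against 12.8% and 15.7% of all genes. Nipbl, the loader of cohesin, rose from 94.9 ± 21.08 to 415.1 ± 15.6 CPM (SD, n = 3), and Meikin, a protector of centromeric cohesin in meiosis, from 1.212 ± 0.371 to 19.12 ± 2.063 CPM. Cdca5 (sororin), which stabilises mitotic cohesion, fell from 38.38 ± 2.218 to 7.816 ± 1.043 CPM, and Sgo1, the mitotic shugoshin, from 68.07 ± 2.615 to 23.4 ± 0.991 CPM. Sgo2a, the shugoshin of meiosis, was 104.5 ± 9.686 and 140.3 ± 9.901 CPM and did not pass. At the second step 1 of 18 rose and 8 fell, against 19.5% and 34.6% of all genes. Pttg1 (securin), the inhibitor of the protease that opens cohesin, rose to 233.7 ± 14.27 CPM, and the acetyltransferase Esco2 fell from 256.7 ± 15.89 to 15.77 ± 2.06 CPM. At the third step 13 of 16 fell and none rose, against 34.2% and 28.2% of all genes. The difference between these genes and the core subunits was not tested.

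Both X-linked members had lost nearly all of their UMIs by late spermatocytes. At that stage the sex chromosomes are known to be silenced in the male germ line. Part of the fall lay inside early spermatocytes. In the early cluster whose leading gene was Stra8, Stag2 was 33.19 to 36.65 CPM over the libraries and Smc1a 36.1 to 56.77 CPM. In the early cluster whose leading gene was Rad51ap2, they were 1.607 to 2.793 and 2.128 to 2.678 CPM. X-linked genes together held 1.849%, 1.861% and 1.789% of UMIs in spermatogonia, 0.0502%, 0.05436% and 0.04862% in late spermatocytes and 1.355%, 1.338% and 1.461% in round spermatids. Of the 192 X-linked genes at 20 CPM or more in spermatogonia of every library, 181 (94.27%) were at least 4-fold lower in late spermatocytes, as Stag2 and Smc1a were, against 1609 of 6317 autosomal genes (25.47%). Of those 181, 62 (34.25%) came back to at least 2 times their late level and 5 CPM in round spermatids. Of the 1609 autosomal genes, 272 (16.9%) did. Stag2 met this in every library and Smc1a did not. Of the autosomal members at 20 CPM or more in spermatogonia, Rad21 and Smc3 were at least 4-fold lower in late spermatocytes as well, and Stag3 and Smc1b were not. Rad21 and Smc3 also came back by the same limits in every library, so the return was not particular to the X-linked Stag2.

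**Figure D3:**
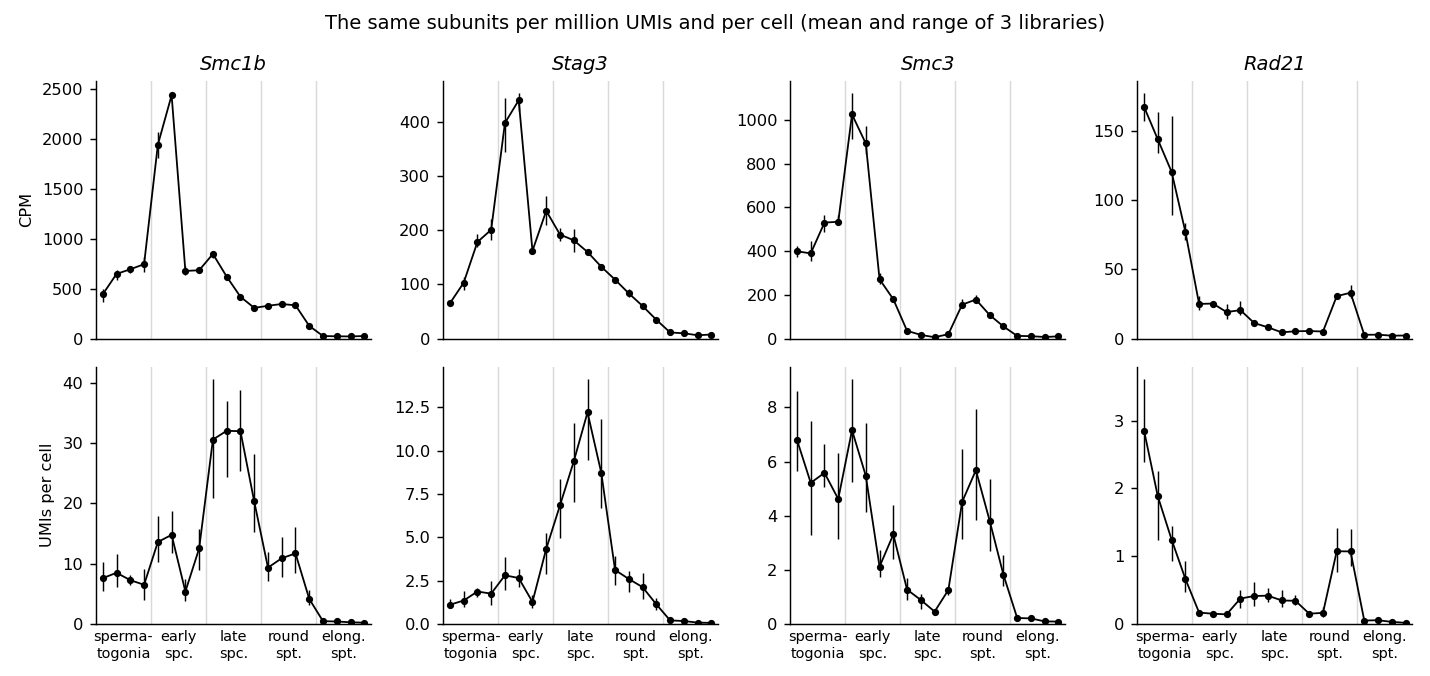
Level of 4 members in CPM (upper row) and in UMIs per cell (lower row) in 4 pseudotime bins of each germ cell class (x axis; spc., spermatocytes; spt., spermatids), as the mean (points) and range (bars) of 3 libraries. Smc1b and Stag3 are highest in early spermatocytes in CPM and in late spermatocytes per cell, while Smc3 is low in late spermatocytes on both scales, and Rad21 per cell is higher in late than in early spermatocytes.

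The scale decides the direction from early to late spermatocytes for 3 members. Per cell, late spermatocytes had 2.527, 2.47 and 2.421 times the Smc1b UMIs of early ones, 3.421, 3.485 and 3.214 times the Stag3 UMIs and 1.515, 1.641 and 2.153 times the Rad21 UMIs, while all 3 were lower in CPM. Rad21l, Stag2, Smc1a and Smc3 were lower in late spermatocytes on both scales. Rec8 was lower in CPM in all 3 libraries, and per cell its late level was 1.112, 0.5726 and 0.7736 times the early one, so wildtype replicate 1 turned with the scale. A change in CPM cannot tell a change in a gene's own RNA from a change in all other RNA, and UMIs per cell cannot tell more RNA from better capture. Over the 20 bins and 3 libraries (60 points), the pairwise Pearson r of log2(CPM + 1) was highest for Stag3 and Smc1b (0.97), followed by Stag2 and Smc3 (0.89) and Stag2 and Smc1a (0.84). Rec8 and Rad21l, both meiotic kleisins, gave 0.25. The points share libraries and depth, so r is a description. By the same measure over 11061 genes, the most similar genes were Ltv1 (0.981), Taf15 (0.979) and Cplane1 (0.975) for Smc1b, Hdgfl2 (0.971), Vps35 and Phtf1 (both 0.97) for Stag3, Stxbp5l (0.943), Cenpm (0.935) and Lamb2 (0.927) for Rad21l, and Gphn (0.88), St5 (0.876) and Klf2 (0.875) for Rec8. For Rad21 they were Mier1 (0.937), C1d (0.931) and Mastl (0.926), and for Smc3 Hikeshi (0.978), Tex15 (0.974) and Tipin (0.969). The 3 nearest genes of Stag2 (Taf9b, 0.976, Apoo, 0.974, and Morf4l2, 0.969) and of Smc1a (Mbnl3, 0.982, Tex13b and Kif4, both 0.981) all lie on the X chromosome.

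Between the knockout library and the wildtype libraries, no member passed a size rule in any germ cell class. The rule asked for a log2 ratio, with 1 CPM added, of 1 or more, or of -1 or less, to both wildtype libraries, and at least 2 times the ratio between the wildtype libraries, with 20 CPM in 1 library. The rule was passed by 0.352% of 7389 genes in spermatogonia, 0.228% of 7013 in early spermatocytes, 0.639% of 5794 in late spermatocytes, 1.31% of 5734 in round spermatids and 1.4% of 3006 in elongating spermatids. Of the members, 6, 6, 2, 5 and 1 reached 20 CPM in these classes, and a count of 0 among so few is near the backgrounds. There is no test, since the knockout group is 1 library.

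In spermatogonia the 6 members at 20 CPM or more had a median log2 ratio to the wildtype mean of 0.08, against -0.01 over all genes measured there, and the largest was Smc1a at 0.2. In early spermatocytes the 6 had a median of 0.01 (all genes, 0.03). Rad21 was lower in the knockout library, at 18.02 CPM against 24.04 ± 1.162 (SD, n = 2), and Smc1a higher, at 26.19 against 19.92 ± 5.406 CPM. The log2 ratio of Rad21 was -0.40, but -0.016 with each cell classed by its own marker score, and 0.079, the other direction, with the first naming rule and the stricter cell filter. The ratio of Smc1a was 0.67 against one wildtype library and 0.14 against the other. It was 0.97 against the wildtype mean with the stricter cell filter, and 1.42 with that filter and the first naming rule. In the latter setting 409 late spermatocytes were named early, and the mean Smc1a level was 5.779 CPM, under the 20 CPM minimum. In late spermatocytes only Stag3 and Smc1b reached 20 CPM, with Stag3 at 151.3 against 167.3 ± 3.868 CPM. In round spermatids Stag3 was 63.67 against 72.98 ± 3.015 CPM and Rad21 21.05 against 18.4 ± 1.364 CPM, with log2 ratios of -0.19 and 0.19. In elongating spermatids only Smc1b reached 20 CPM, at 23.57 against 23.43 ± 1.3 CPM.

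**Figure D4:**
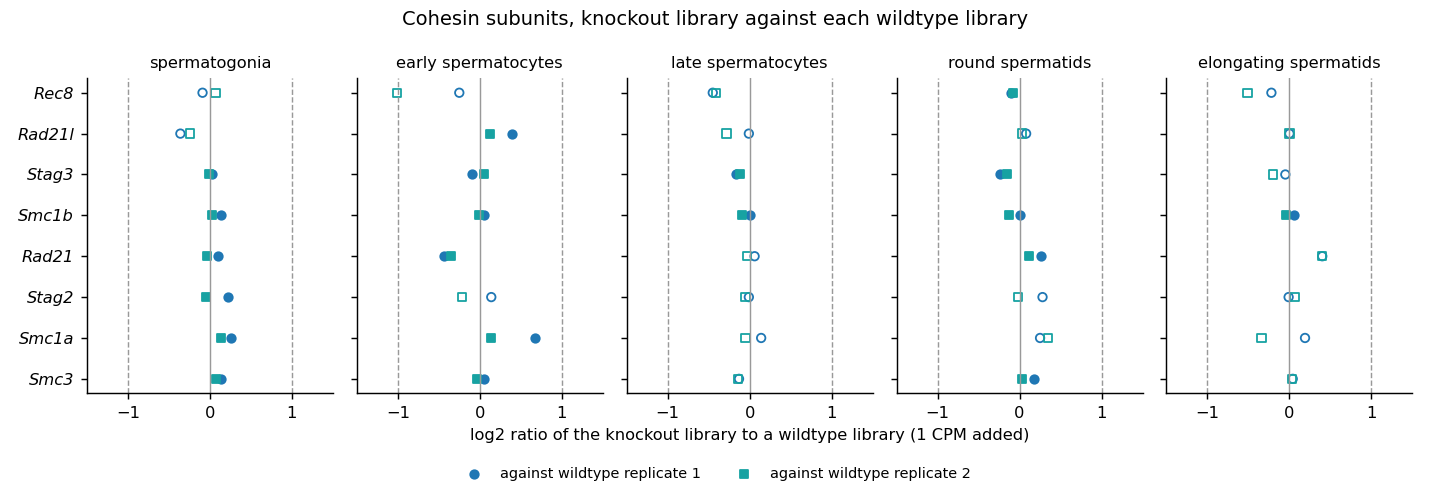
Log2 ratio of the knockout library to each wildtype library (x axis, 1 CPM added) for each member (y axis) in 5 germ cell classes; circles are ratios to wildtype replicate 1, squares to wildtype replicate 2, open symbols mark members under 20 CPM in every library, and dashed lines mark 2-fold. No member lies beyond 2-fold against both wildtype libraries.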

How the data were processed

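Testis cells were measured with 10x Genomics 3′ version 3.1 libraries, per the labels' protocols. The deposited values are raw UMI counts per gene and barcode. Per the submitters' processing notes, Cell Ranger 4.0.0, Seurat 4.0.5 and mm10 were used; use of strand is not given in the sources used here. Barcodes needed 1000 UMIs, 500 genes and at most 10% mitochondrial UMIs. The automatic Scrublet threshold marked 0, 1 and 0 barcodes, so the top 8% of scores were left out. Cells were clustered in scanpy 1.11.5 (2000 variable genes without the cohesin genes, 30 components, 15 neighbours, Leiden resolution 1, no batch correction) into 29 clusters.

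Clusters were named from fixed markers by their mean level relative to the highest cluster. A first rule used the mean z-score of log2 CPM. It was replaced after its results, members and alternatives included, had been seen. The replacement left the spermatogonia and spermatocyte classes as they were, moved 606 cells from elongating to round spermatids, and made the early kleisin difference steadier across settings. Values under the first rule are therefore given beside that result. The stricter cell filter of the alternatives asked for 2000 UMIs, 1000 genes and at most 5% mitochondrial UMIs. Pseudotime was run in 3 segments, chosen after a single run and a run in 2 segments had put elongating spermatids in the wrong order by Tnp1, Prm1 and Acrv1.

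For each class of each library, UMIs were added up and scaled to counts per 1000000 (CPM). Intervals are 95% exact Poisson or Clopper-Pearson, for counting error only. No test was run. The named genes are the 8 members, 22 related genes and the 3 genes most like each member. Members and lists were chosen with earlier results of these data known. Positions are from GENCODE M21 on GRCm38, which matched 32235 of 32285 genes.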

Additional observations from a re-analysis of the deposited data

How the results depend on the processing

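The early kleisin difference (50.56 points) was 37.05 with each cell's own marker score. Under the first naming rule it was 50.56 in the same clustering, 31.42 with the stricter cell filter, 36.85 with doublet-scored barcodes kept and 41.77 at Leiden resolution 2. Its steadiness under the naming rule used here is not independent evidence, since that rule was chosen after these values were seen. The STAG difference (20.85) was 13.39 with cells thinned to 2000 UMIs and 24.69 under the first rule with doublet-scored barcodes kept. The SMC1 difference (10.5) was 9.936 with doublet-scored barcodes kept, 10.84 thinned, and 11.32, 11.37 and 11.23 under the first rule with the stricter filter, with doublet-scored barcodes kept and at resolution 2. Without 1 library, the differences ran from 48.07 to 54.71, from 19.59 to 22.49 and from 10.37 to 10.68 points. All kept their direction. No member passed the size rule in any of the 17 alternatives. All genes that passed, summed over classes (196), were 791 with no CPM filter, 542 at 1.5-fold and 312 without wildtype replicate 1, and 232 without wildtype replicate 2. Under the first rule in the same clustering, elongating spermatids had 9.167 CPM of Rad21 (2.545 here) and 44.61 CPM of Smc1b (23.48 here), and early spermatocytes had 7.272 CPM of Rad21l (27.39 here) with that rule and the stricter filter. No paired analysis was possible because the knockout group is 1 library and no test was run. The alternatives on naming, on clusters weighted equally and on leaving out a library for shares were added after seeing the data. Counting error limits Rad21l, Stag2 and Smc1a in late spermatocytes, the deepest class, where they rest on 8, 35 and 31 UMIs in all.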

Other observations

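Some of the subunits were also measured in somatic cells of the testis. Rad21 was 93.39, 136.4 and 114.9 CPM in Sertoli cells, the nurse cells of the tubule, close to its level in spermatogonia, from 37, 32 and 158 UMIs. Stag2 was 107.6, 69.91 and 78.4 CPM in peritubular myoid cells, above every germ cell class in every library. Smc1a was 81.16, 86.86 and 101.8 CPM there. Rad21l was 0 in myoid cells and Leydig cells of every library. The wildtype Leydig cells held only 97738 and 109622 UMIs of all genes, so a value of 0 there is a loose limit. In Sertoli cells Rad21l was 2.182 and 2.524 CPM in the 2 libraries with more of these cells, from 4 UMIs. Spermatogonia were at 2.119 to 3.007 CPM.

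Rec8 was 25.24, 38.35 and 27.63 CPM in Sertoli cells, from 10, 9 and 38 UMIs, against 8.726 ± 2.323 CPM (SD, n = 3) in myoid cells and 0, 0 and 0.7439 CPM in Leydig cells. The Sertoli cells numbered 22, 14 and 51, and the source of these UMIs was not tested.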
